A study of Mus musculus with 23 samples.

Results

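Proteins that enter the secretory pathway are folded in the endoplasmic reticulum (ER), and the 10 genes described here encode parts of the machinery that does it. They were chosen by symbol as ER chaperones and collagen folding genes, and all 10 were found among the 23284 genes of the expression table. Hspa5 (BiP) and Hsp90b1 (GRP94) are the main chaperones of the ER, Canx and Calr are lectin chaperones that hold glycoproteins, and Pdia3, Pdia6 and P4hb are protein disulfide isomerases. P4ha1 hydroxylates prolines of procollagen together with P4hb, Serpinh1 (HSP47) holds the folded procollagen triple helix, and Ppib (cyclophilin B) turns its proline bonds.

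The genes were measured in 16 single mouse mesenchymal stem cells (mMSC), 5 single HL-1 cardiomyocytes (HL1cm), 1 population control of mMSC (mMSC-PC) and 1 of HL-1 cells (HL1cm-PC). The mMSC came from bone marrow of the C57BL/6J strain, were purchased, were grown on gelatin and were used at passages 6 to 11. HL1cm are an established mouse atrial line that the labels also give as C57BL/6J. They were at passages 70 to 85 and were grown in Claycomb medium with norepinephrine, and they were stained with a green cytoplasmic dye before capture by the study's methods, so cell type, passage, medium and dye cannot be told apart here. The labels name no other treatment and no altered gene. Single cells were caught on a chip for large cells. A population control held many cells, and by the study's methods it was bulk RNA run in parallel. Preparation and RNA input therefore cannot be told apart from the difference between a control and its cells. Separate cultures are not named, so each cell type was treated as 1 sample and no test between the cell types was made. The values are FPKM, fragments scaled by transcript length and by the mapped fragments of the library. For log2 values, anything below 1 FPKM counted as 1 FPKM. The study lists read totals for each cell, but they were not used, so the reads behind a value are not given. A difference of 1 log2 unit or more between the medians of the cell types (2-fold) was counted as higher or lower.

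The libraries carried most of the genes of their labels. Of 10 cardiomyocyte markers, 9 were tested, and 8 of these were lower in every mMSC than in every HL1cm. The remaining tested marker, Nppa, had a difference of medians of 0. Myh7 did not reach 1 FPKM in at least 2 single cells and was not tested. Of 10 mesenchymal markers, 7 were tested and all were higher in mMSC, and for 6 of them every mMSC lay above every HL1cm. Col1a2, Pdgfrb and Ly6a were listed at 0 in all 5 HL1cm, while Vim had 555 to 1005 FPKM there. The other 3, Thy1, Lum and Dcn, were at 0 in every single cell, mMSC included. Of 10 macrophage markers, 6, among them Ptprc, Emr1, Lyz2 and Tyrobp, were at 0 in every single cell, while Cd14 was above 0 in 15 mMSC, and the summed level of the 10 was 3.10 to 369 FPKM in mMSC and 0 to 1.10 FPKM in HL1cm. Of 7 plasma cell and B cell markers, which mark cells known for a large ER, 5, among them Cd79a and Igj, were at 0 in every single cell, and the summed level was 7.42 to 136 FPKM in mMSC, all of it Sdc1, and 0 to 39.6 FPKM in HL1cm. In mMSC 5198 (mMSC9) to 7641 (mMSC5) genes were above 0, in HL1cm 6788 to 7226, and in the population controls 10279 (mMSC-PC) and 10157 (HL1cm-PC). The summed FPKM of a library ran from 630240 to 2529610 and was moved by a few genes of very large values.

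As background, cells that secrete much protein, such as fibroblasts that make collagen, carry large amounts of this machinery, and most of it is induced when unfolded protein collects in the ER. The unfolded protein response then releases ATF6 and makes XBP1, which bind promoter elements such as the ER stress response element (ERSE). An ERSE is CCAAT and CCACG with 9 bases between them. RefSeq promoters (GRCm38.p6, the mm10 genome) of 250 bases before and 50 bases after the start of each gene were searched for it on both strands, and all 10 genes had an entry. An ERSE lay in 5 of the 10, namely Hspa5, Hsp90b1, Canx, Calr and Pdia6, against 39 of 32851 promoters of the genome (0.119%). These windows are shown because they are what 5 of the genes share in their DNA. The 10 genes were chosen by function, and the ERSE belongs to the response that induces such genes. The count is thus a description and no test of enrichment. Capitals mark the ERSE, each window reads 5′ to 3′ on the strand of its gene, and a match in reverse starts with the reverse complement of CCACG.
Hspa5, chr2:34772005-34772063, + strand: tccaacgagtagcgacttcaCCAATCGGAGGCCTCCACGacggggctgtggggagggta
Hsp90b1, chr10:86705618-86705676, - strand: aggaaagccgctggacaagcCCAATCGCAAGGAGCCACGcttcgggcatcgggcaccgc
Hsp90b1 in reverse, chr10:86705513-86705571, - strand: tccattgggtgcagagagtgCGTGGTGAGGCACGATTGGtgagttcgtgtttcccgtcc
Canx, chr11:50325780-50325838, - strand: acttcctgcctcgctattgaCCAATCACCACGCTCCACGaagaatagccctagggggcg
Calr in reverse, chr8:84847055-84847113, - strand: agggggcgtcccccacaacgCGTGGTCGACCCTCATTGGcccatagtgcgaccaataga
Pdia6, chr12:17266471-17266529, + strand: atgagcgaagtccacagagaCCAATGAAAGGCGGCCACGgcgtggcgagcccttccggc

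The elements began 65 bases before the start in Hspa5, 98 in Pdia6, 145 in Canx and 162 in Calr. These starts are those of the RefSeq promoters and can differ from the ends of the GENCODE gene spans given below. The window of Hspa5 lies inside its GENCODE span for that reason. Hsp90b1 held 2 of them, which began 212 and 107 bases before its start and faced opposite ways. In Canx a second CCACG lay inside the element, 2 bases after CCAAT. P4hb had CCAAT and CCACG near its start with 6 bases between them, which is not the spacing of an ERSE, and Pdia3, P4ha1, Serpinh1 and Ppib had no pair with that spacing. The related ERSE-II (ATTGG, 1 base, CCACG) lay in 0.0365% of all promoters and in none of the 10, and TGACGTGG, known as UPRE, lay in 0.676% of all promoters and again in none of the 10. CCACG alone was common, in 32.8% of all promoters and in 9 of the 10, and CCAAT alone lay in 37.4% and in 8 of the 10; both are contained in the ERSE. The 10 promoters were 60.3% (Calr) to 75.7% (Pdia3) G and C, against a median of 52.7% over all promoters. A match describes letters in this window only.

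The 10 genes were among the stronger ones in both cell types. Their summed level was 3261 to 7284 FPKM (median 4358) in the 16 mMSC and 2862 to 4809 FPKM (median 4276) in the 5 HL1cm, so every HL1cm lay below the highest mMSC and the ranges overlapped in part. Together they made up 0.488% to 1.14% of the FPKM of an mMSC (median 0.695%) and 0.681% to 0.867% of that of an HL1cm (median 0.690%) when genes reaching 20000 FPKM in any library were left out of the total. With those genes counted, the median shares were 0.543% in mMSC and 0.252% in HL1cm, so that difference rests on genes outside the group. In mMSC the order of median levels ran from Canx, Hsp90b1 and Hspa5 through Calr, Pdia6, Pdia3, Ppib and P4hb to Serpinh1 and P4ha1. In HL1cm Pdia6 came before Calr, and Ppib came after P4hb and Serpinh1. Neighbours in each order overlapped in their ranges, except that Canx lay above Hsp90b1 in HL1cm without overlap. Ranked among all 23284 genes of a library, Canx had a median rank of 96 in mMSC and 72 in HL1cm, and P4ha1, the lowest of the 10, of 1555.5 and 2516.

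**Figure D1:**
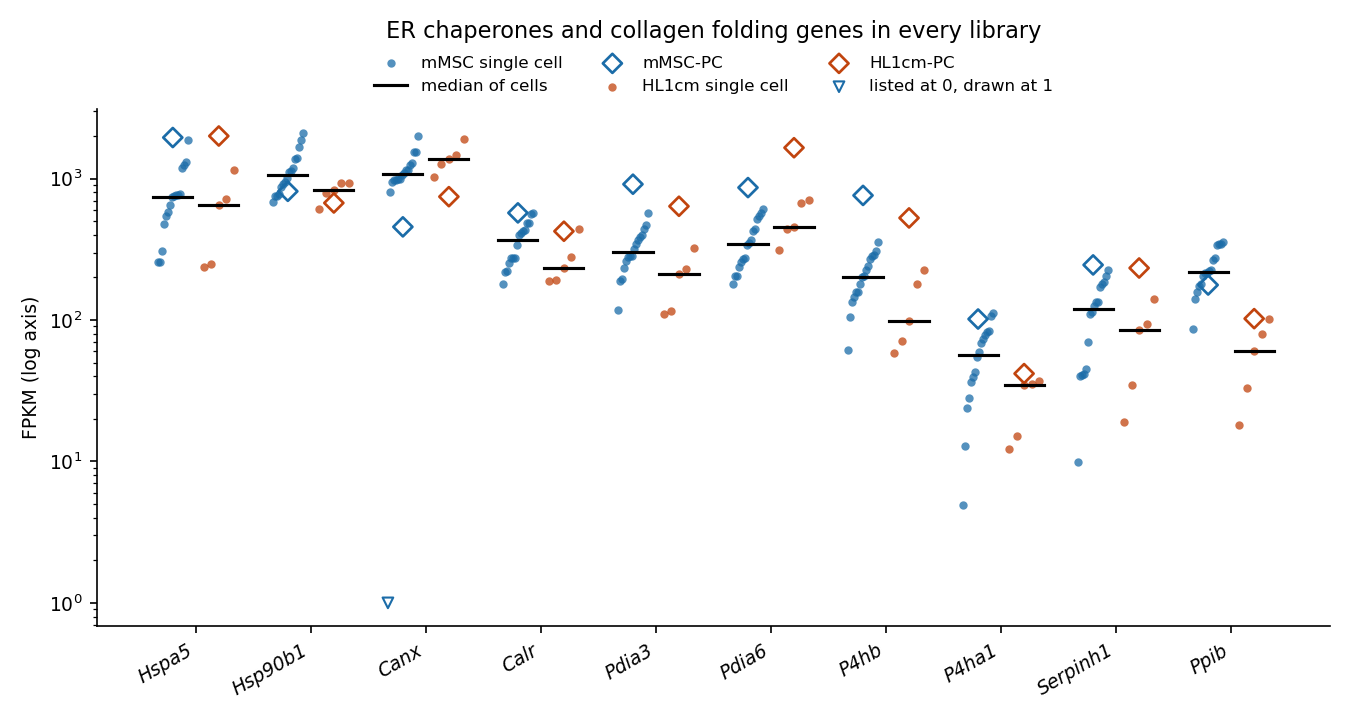
FPKM of each gene on a log axis in every library, with points for single cells, bars for their medians and open diamonds for the population controls (blue mMSC, orange HL1cm). The clouds of the cell types overlap for all 10 genes, most narrowly for Ppib, and 1 triangle marks the value of Canx listed at 0 in mMSC12.

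Between the cell types the difference of the group as a whole depended on scale. In FPKM as deposited it was small, while with FPKM rescaled to 1 common sum the median difference was 1.43 and 8 of the 10 genes were higher in mMSC by 1 log2 unit or more, as were 25.4% of all tested genes. The median log2 level was higher in mMSC than in HL1cm for 8 genes and lower for Canx and Pdia6, where Canx was higher with FPKM rescaled by their sum (0.13) or by Gapdh (0.19) and Pdia6 by their sum (0.26). The median of the 10 differences was 0.50, against 0 over the 11850 genes with 1 FPKM or more in at least 2 single cells. Many of the 11850 had medians under 1 FPKM in both cell types and so a difference of 0. Shares of all tested genes include them, unlike the 10. Of the 10, Ppib and P4hb were higher in mMSC by 1 log2 unit or more, while 21.3% of the 11850 genes were. None of the 10 was lower by as much, while 21.9% of all genes were. For none of the 10 did every mMSC lie above every HL1cm (2.26% of all genes) or below (1.88%). Among the 1261 genes whose median in mMSC lay in the span of the 10, from 56.7 to 1082 FPKM, the median difference was 0.62, with 39.0% higher and 10.2% lower by that rule. These genes were picked by their level in mMSC alone, which by itself can raise their difference. The closeness of 0.50 for the 10 to 0.62 therefore cannot show whether the 10 shifted.

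Hspa5 (chr2:34771970-34777547, + strand, mm10) encodes BiP, the ER form of HSP70, which binds unfolded chains and is the usual readout of ER stress. It measured 257 FPKM (mMSC9) to 1864 FPKM (mMSC13) in mMSC, with a median of 743. The 5 HL1cm had 715, 1141, 248, 653 and 237 FPKM. The lowest mMSC and the lowest HL1cm were thus almost level, and 4 mMSC lay above every HL1cm. The difference of the medians was 0.19 log2 units (1.14-fold) beside SDs among cells of 0.82 (n = 16) and 1.00 (n = 5).

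Hsp90b1 (chr10:86690209-86705509, - strand) encodes the HSP90 of the ER, which folds a limited set of clients such as integrins. In mMSC it ran from 686 FPKM (mMSC3) over a median of 1061 to 2115 FPKM (mMSC14). In HL1cm it was the steadiest of the 10, at 924, 789, 924, 832 and 610 FPKM, an SD of 0.25 log2 units. Of the mMSC, 10 lay above all of these, and the medians differed by 0.35 log2 units (1.27-fold) beside an SD of 0.49 among mMSC.

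Canx (chr11:50293961-50325673, - strand) encodes calnexin, the membrane-bound lectin chaperone. It was listed at 0 in mMSC12, while the other 15 mMSC ran from 809 FPKM (mMSC16) to 1991 FPKM (mMSC14) and the median of all 16 was 1082. A listed 0 can be a failed estimate, since 9 of the 381 genes with a median over 300 FPKM in mMSC were listed at 0 in at least 1 mMSC. Apart from mMSC12, Canx was even from cell to cell, with an SD of 0.34 log2 units over 15 cells (2.56 with mMSC12 set to 1 FPKM). The HL1cm values were 1474, 1374, 1914, 1029 and 1272 FPKM. The medians differed by -0.34 log2 units, lower in mMSC, which is about the SD among cells of either type (0.33 in HL1cm).

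Calr (chr8:84841850-84846934, - strand) encodes calreticulin, the soluble partner of calnexin and a store of calcium in the ER. It ran from 179 FPKM (mMSC5) to 573 FPKM (mMSC6) with a median of 370 in mMSC. HL1cm had 281, 234, 193, 440 and 188 FPKM, so 4 mMSC exceeded all of them. The difference was 0.65 log2 units (1.57-fold) beside SDs of 0.52 and 0.50. Measured in the same library, Calr was 0.274 times Canx in the median of 15 mMSC (0.116 to 0.537) and 0.170 times in HL1cm (0.101 to 0.428).

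The disulfide isomerases went different ways. Pdia3 (ERp57, chr2:121413775-121438687, + strand), which works on glycoproteins held by calnexin and calreticulin, ran from 118 FPKM (mMSC8) to 567 FPKM (mMSC12) with a median of 301 in mMSC. In HL1cm it had 231, 110, 321, 213 and 116 FPKM. The medians differed by 0.49 log2 units beside SDs of 0.57 and 0.67.

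Pdia6 (P5, chr12:17266545-17284770, + strand), a disulfide isomerase that joins BiP in chaperone complexes, was the gene with the lowest difference. It ran from 181 FPKM (mMSC12) to 612 FPKM (mMSC16) with a median of 343 in mMSC. The HL1cm values were 439, 704, 458, 674 and 313 FPKM, and no mMSC lay above all of them. The medians differed by -0.41 log2 units (0.751-fold) beside SDs of 0.57 and 0.48.

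P4hb (chr11:120560298-120573253, - strand) encodes protein disulfide isomerase itself, which is also the beta subunit of prolyl 4-hydroxylase. It ran from 61.6 FPKM (mMSC4) to 356 FPKM (mMSC11) with a median of 202 in mMSC. HL1cm1 to HL1cm5 had 70.7, 179, 98.8, 225 and 58.5 FPKM, and 7 mMSC lay above the highest of these. The difference was 1.03 log2 units (2.04-fold) beside SDs of 0.65 and 0.84, at the edge of the 1 log2 unit rule. It was below 1 when HL1cm1, HL1cm3 or HL1cm5 was left out, without mMSC9 and mMSC15, with the mean in place of the median, and with FPKM rescaled by the upper quartile or by the sum of genes under 20000 FPKM, and it ran from 0.56 to 1.69 over 14 alternatives.

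Within a library Pdia6 and P4hb stood in different proportion in the cell types. Pdia6 was 1.65 times P4hb in the median mMSC (0.712 to 4.91) and 4.63 times in the median HL1cm (2.99 to 6.21). Of 16 mMSC, 13 lay below every HL1cm, and the medians differed by -1.48 log2 units beside SDs of 0.81 and 0.41. The population controls stood in the same order, at 1.14 in mMSC-PC and 3.14 in HL1cm-PC. A ratio within a library does not depend on how libraries were scaled. Pdia3 was 1.47 times P4hb in mMSC (0.822 to 5.56) and 1.99 times in HL1cm (0.611 to 3.26), with ranges that overlapped nearly throughout.

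P4ha1 and Serpinh1, both of collagen folding, varied most among mMSC apart from the listed 0 of Canx. P4ha1 (chr10:59323296-59373304, + strand), the alpha subunit that carries the active site of prolyl 4-hydroxylase, ran from 4.94 FPKM (mMSC10) to 113 FPKM (mMSC14) in mMSC, with a median of 56.7. In HL1cm it had 34.5, 35, 12.2, 37.1 and 15.1 FPKM, and 11 mMSC lay above all of them. The medians differed by 0.72 log2 units (1.64-fold) beside SDs of 1.20 and 0.77. P4ha1 was 0.270 times its partner P4hb in the median mMSC, with 0.0340 (mMSC10) and 0.715 (mMSC14) at the ends, and 0.195 times in HL1cm (0.124 to 0.488), so P4hb was the more abundant of the pair in every library.

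Serpinh1 (chr7:99345376-99353239, - strand) encodes HSP47, a chaperone known for binding procollagen alone. It ran from 9.87 FPKM (mMSC9) to 227 FPKM (mMSC2) with a median of 120 in mMSC. HL1cm, in which the fibrillar collagen genes listed below were near 0, had 84.6, 140, 18.9, 93.2 and 34.9 FPKM. The cell types differed by 0.51 log2 units (1.42-fold) beside SDs of 1.22 and 1.18, the largest pair of SDs of the 10 once the listed 0 of Canx is set aside. Against Hspa5 of the same library it was at 0.129 in mMSC (0.0384 to 0.430) and 0.123 in HL1cm (0.0763 to 0.147).

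Ppib (chr9:66060222-66066623, + strand) showed the largest difference of the 10. It ran from 86.7 FPKM (mMSC7) over a median of 218 to 358 FPKM (mMSC8) in mMSC. The HL1cm values were 60.8, 102, 33.1, 80.0 and 18.1 FPKM. All mMSC but mMSC7 lay above every HL1cm, and 4 of 5 HL1cm lay below every mMSC. The medians differed by 1.84 log2 units (3.58-fold) beside SDs of 0.55 and 1.01, and the difference stayed between 1.64 and 3.19 over 14 alternatives. The cell types did not overlap when FPKM were divided by the upper quartile or by Gapdh, or without HL1cm2. Relative to Hspa5, Ppib stood at 0.290 in the median mMSC (0.0843 to 1.35) and 0.0892 in the median HL1cm (0.0765 to 0.134), and 14 of 16 mMSC exceeded every HL1cm. Reads of the neighbour Snx22, whose exons overlap Ppib on the opposite strand, cannot be told apart from it without strand; Snx22 had medians of 33.6 FPKM in mMSC and 8.38 FPKM in HL1cm. Overlaps of that kind also touch Hsp90b1, Pdia3 and Pdia6, with neighbours whose medians were under 1 FPKM.

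**Figure D2:**
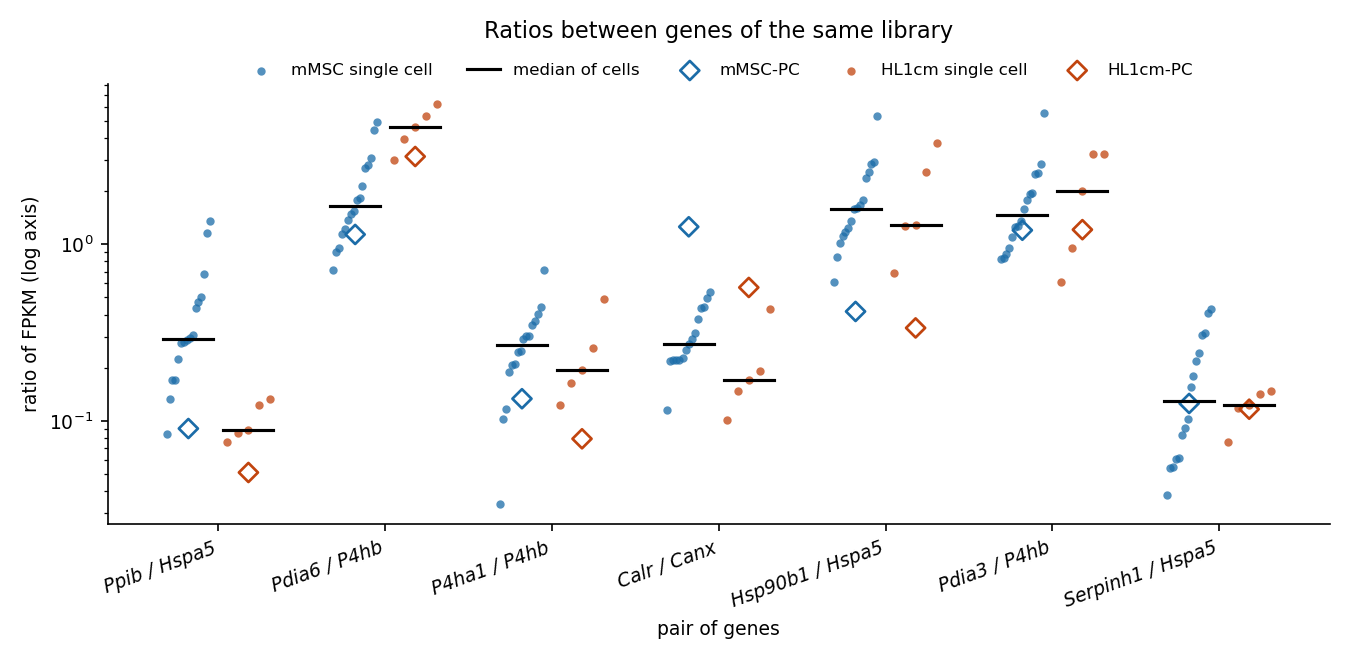
Ratio of the FPKM of 2 genes of the same library on a log axis, for 7 pairs, with points for single cells, bars for medians and open diamonds for population controls (Calr over Canx leaves out mMSC12). Ppib over Hspa5 is higher in 14 of 16 mMSC than in any HL1cm, and Pdia6 over P4hb is lower in 13 of 16.

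The genes with an ERSE differed less between the cell types than those without. With an ERSE, the 5 differences ran from -0.41 (Pdia6) to 0.65 (Calr) with a median of 0.19. For the 5 without, they ran from 0.49 (Pdia3) to 1.84 (Ppib) with a median of 0.72, and Calr was the 1 gene by which these ranges overlapped. The genes with an ERSE were also the stronger ones, at a median level of 743 FPKM in mMSC and 653 in HL1cm, against 202 and 84.6 FPKM for the others. This is a description of 10 chosen genes and was not tested. Another 11 tested genes held an ERSE, of which 1 was higher and 3 were lower in mMSC, with a median difference of 0. Among the ER genes on the lists used below these were Creld2, which rises in ER stress (41.6 FPKM in the median mMSC and 26.9 in HL1cm, difference 0.62), Dnajc3, an inhibitor of the kinase PERK (10.6 and 18.7 FPKM, -0.82), Derl3, a part of ER-associated degradation (listed at 0 in every mMSC and 42.1 FPKM in the median HL1cm), and Syvn1, the ubiquitin ligase of that pathway, with medians of 0 in both.

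The population controls departed from the single cells gene by gene. In mMSC-PC 5 of the 10 (Hspa5, Pdia3, Pdia6, P4hb and Serpinh1) lay above all 16 mMSC, while 8.89% of all tested genes did. In HL1cm-PC 7 (these 5 with P4ha1 and Ppib) lay above all 5 HL1cm, while 29.3% of genes did. For 5 of the 10 both controls lay above every cell of their type, while 5.21% of genes did so, and 7.06% of the 1261 genes of like level. In the other direction Canx lay below every HL1cm in HL1cm-PC (2.37% of genes), and in mMSC-PC, where 1.99% of genes lay below every mMSC, it was below the 15 mMSC in which it was above 0.

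By size, Hspa5 measured 1952 FPKM in mMSC-PC and 2001 FPKM in HL1cm-PC, which is 2.50 and 3.34 times the mean of the cells. For P4hb the controls had 761 and 527 FPKM, 3.67 and 4.17 times the mean. Pdia3 had 913 and 637 FPKM (2.84 and 3.22 times), Pdia6 864 and 1654 FPKM (2.38 and 3.20 times) and Serpinh1 245 and 233 FPKM (2.14 and 3.14 times). Thus the soluble disulfide isomerases and BiP stood highest against their cells in both cell types. Calr had 572 and 424 FPKM (1.57 and 1.59 times) and P4ha1 102 and 41.8 FPKM (1.79 and 1.56 times). Canx went the other way, at 456 and 745 FPKM or 0.410 and 0.528 times the mean of the cells, as did Hsp90b1, at 813 and 673 FPKM or 0.700 and 0.825 times. Ppib was split, with 177 FPKM in mMSC-PC (0.754 times) and 102 FPKM in HL1cm-PC (1.74 times).

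The ratios between genes therefore changed from cells to populations. Calr was 1.26 times Canx in mMSC-PC and 0.570 times in HL1cm-PC, above every single cell of its type. Hsp90b1 was 0.417 and 0.336 times Hspa5, below every single cell of its type, whose medians were 1.59 and 1.29. How far the controls stood above the cells depended on scale. Gapdh itself was 551 FPKM in mMSC-PC against 157 to 319 FPKM in the cells (2.60 times the mean), and 1.21 times the mean in HL1cm-PC. After division by Gapdh none of the 10 lay above all mMSC in mMSC-PC (1.12% of all tested genes), while 5 lay above all HL1cm in HL1cm-PC (21.5%). With FPKM rescaled to the sum of genes under 20000 FPKM, 3 genes (Pdia3, Pdia6 and P4hb) lay above every cell in both controls, as did 3.83% of all tested genes. With the upper quartile the count in both controls rose to 7 (9.16% of all tested genes). With FPKM rescaled to 1 common sum it was 4 (8.77%). Each control is 1 library, so its own error is unknown, and in a population fewer cells with a transcript and less RNA per cell cannot be told apart. Differences in preparation between bulk RNA and single cells cannot be told apart from these either.

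**Figure D3:**
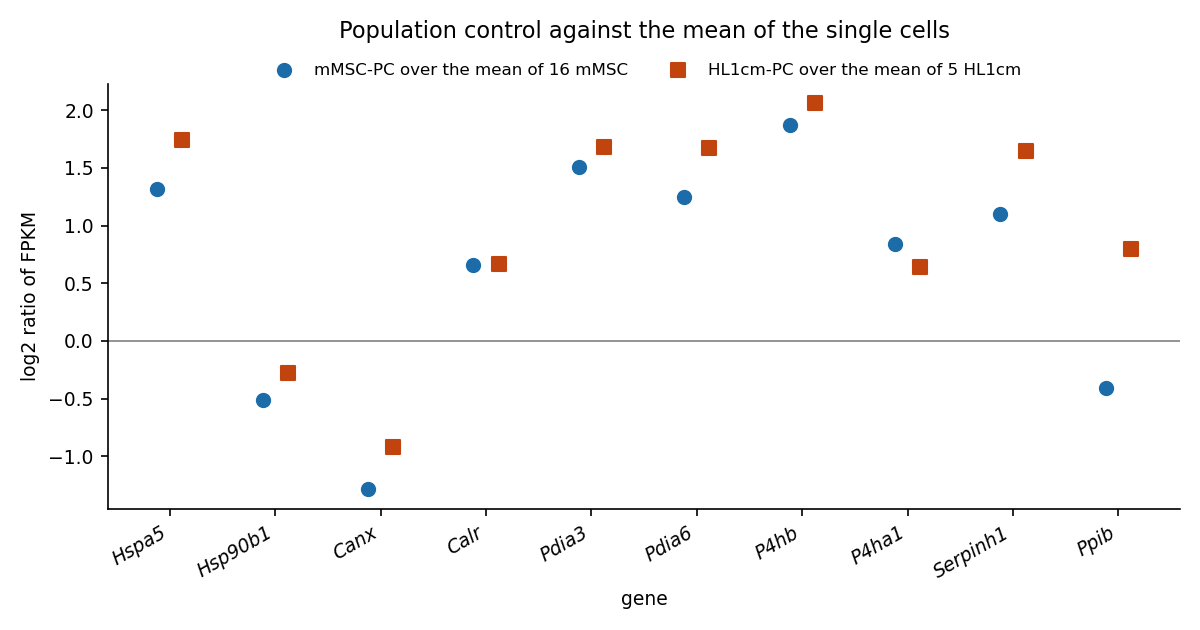
Log2 ratio of the FPKM in the population control to the mean FPKM of the single cells of the same type, for mMSC (circles) and HL1cm (squares), 1 library each. P4hb, Pdia3 and Hspa5 lie highest, Canx and Hsp90b1 lie below 0 in both, and Ppib has opposite signs.

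The order of the population controls gave a second look at the cell types, from libraries other than the single cells. Of the 10 genes, 7 were higher in mMSC-PC than in HL1cm-PC. P4ha1 was higher by 1.28 log2 units and Ppib by 0.79, while Pdia6 was lower by a log2 difference of -0.94 and Canx by -0.71. The 2 genes that were lower in mMSC than HL1cm cells were thus lower in mMSC-PC too, as was Hspa5 by a log2 difference of -0.04. Gapdh was higher in mMSC-PC as well, at 551 FPKM against 328 FPKM in HL1cm-PC. The count of 7 thus depends on scale, and it was not repeated on another scale. With 1 library on each side these differences have no replicate check.

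Among the 16 mMSC the 10 genes did not vary as a block. Their median SD was 0.61 log2 units, against 0.79 for the 1261 genes of like level, and 4 of the 10 (Hspa5, Canx, P4ha1 and Serpinh1) lay above that value, Canx through mMSC12 alone. From the highest to the lowest mMSC the level changed 22.98-fold for Serpinh1 and 22.86-fold for P4ha1, and 7.24-fold for Hspa5. For Canx above 0 it changed 2.46-fold, and for Hsp90b1 3.08-fold. The most abundant of the 10 were thus also the most even, apart from Hspa5.

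Single cells stood out by several genes at once. In mMSC14 9 of the 10 genes were above the mMSC median and 3 (Hsp90b1, Canx and P4ha1) were at their highest, and in mMSC2 9 were above the median too. In mMSC10 none was above the median. Serpinh1 and Hspa5 were both at their lowest in mMSC9, the cell with the fewest genes above 0, where Ppib and Calr were above the median of the 16 cells. In mMSC12 Canx was listed at 0 and Pdia6 was at its lowest, while Pdia3 was at its highest. HL1cm5 had the lowest value of the HL1cm for 6 of the 10 genes and was above the median for none.

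**Figure D4:**
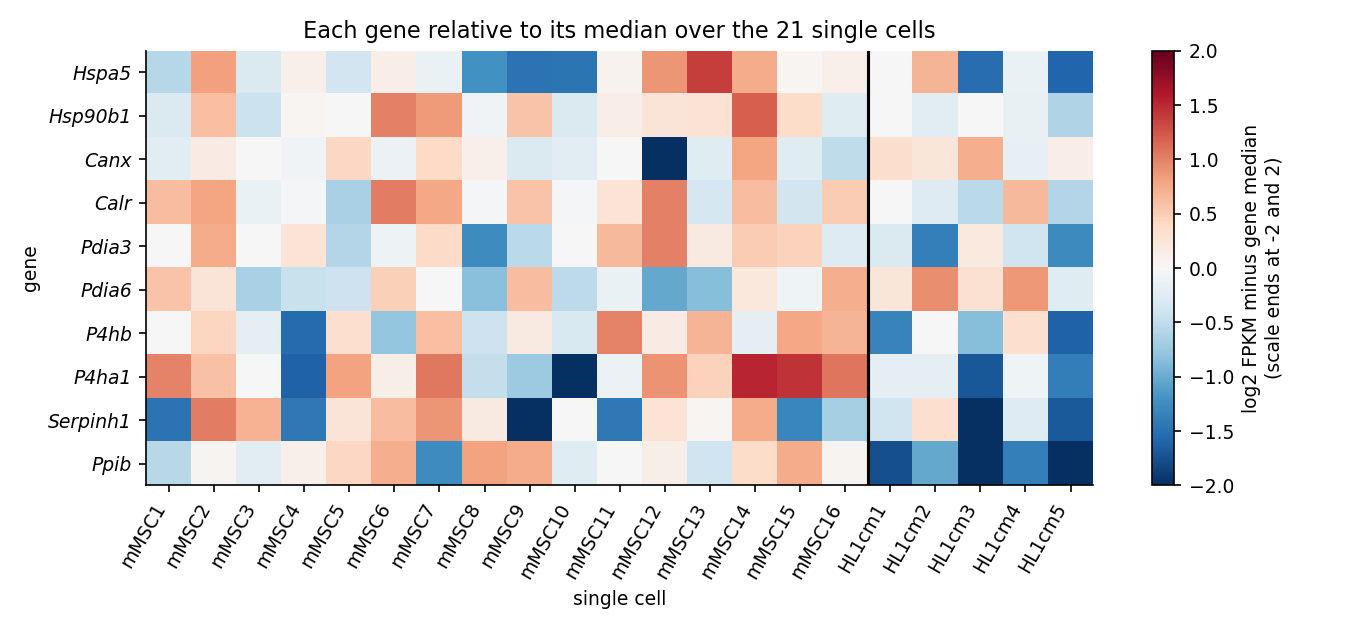
Log2 FPKM of each gene in each single cell minus the median of that gene over the 21 cells, with the 16 mMSC left of the line and the 5 HL1cm right of it. Ppib is below 0 in all 5 HL1cm, mMSC14 and mMSC2 are mostly red, and HL1cm5 is mostly blue.

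Over the 45 pairs of genes the correlation of log2 FPKM among the 16 mMSC had a median of 0.13 and ran from -0.41 to 0.68, with 4 pairs above 0.5 and 18 below 0. For genes of like level the median was -0.01. All cells of a pair share their library, so scale moves both genes, and no p is given. Hspa5 and Pdia3 had the highest r (0.68, Spearman's rho 0.63, 16 cells), and r was 0.71 without mMSC9 and mMSC10, the cells farthest from the median of Hspa5, and 0.57 without those farthest on Pdia3. Hsp90b1 and Calr followed each other less closely (r 0.51, rho 0.52, with 0.37 without the 2 cells farthest on Hsp90b1 and 0.58 without those farthest on Calr). For P4hb and P4ha1, the 2 subunits of 1 enzyme, r was 0.53 and rho 0.43, and r became 0.42 without mMSC4 and mMSC6 and 0.28 without the 2 cells farthest on P4ha1. The r of 0.56 between Hspa5 and P4ha1 became 0.24 without mMSC9 and mMSC10 and rests on them (0.53 without the 2 cells farthest on P4ha1). The lowest r, between Canx and Pdia3 (-0.41), rests on mMSC12, since it was 0.18 over the 15 other cells. With FPKM rescaled to 1 common sum the median r of the 45 pairs was 0.50.

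Against Col1a1, the main chain of type I collagen and the best known client of the collagen folding genes, Serpinh1 had the highest r over the 16 mMSC (0.56, rho 0.51, and 0.45 without mMSC1 and mMSC9). By r P4hb followed (r 0.49, rho 0.36, and 0.30 without mMSC4 and mMSC6), while by rho Hspa5 did (r 0.29, rho 0.44). P4ha1 had r 0.25, which became 0.39 without mMSC4 and mMSC10. Ppib had r -0.21, which became 0.04 without mMSC7 and mMSC8. The genes whose level was most like the mean log2 level of the 10, among 2565 genes with 10 FPKM or more in at least 12 mMSC, were Fbxo11 (r 0.80), Sec11a (0.77), Ap3d1 (0.71), Rexo2 (0.70) and Bag2 (0.70), over 16 cells. With Canx left out of the mean they were Psmd14, Jmjd6, Fkbp7, Pkm2 and Nedd4 (r 0.69 to 0.70), so the first 5 depended on whether Canx was counted.

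The other genes of the ER pathway were taken from lists chosen by function. Of 16 further ER chaperones and co-chaperones tested, 6 were higher and 2 lower in mMSC by 1 log2 unit or more, with a median difference of 0.48. Sil1, which exchanges the nucleotide of BiP, was above 0 in 11 of 16 mMSC and 2 of 5 HL1cm (medians of 16.7 and 0 FPKM). Hyou1, the large ER chaperone that does the same, went the other way, with 1.43 FPKM in the median mMSC and 11.9 FPKM in the median HL1cm (-3.06), as did Sdf2l1, a partner of BiP and ER DnaJ proteins, with 0 and 45.5 FPKM (-5.51). Sdf2l1 was above 0 in 7 of 16 mMSC and 3 of 5 HL1cm, with ranges of 0 to 66.9 and 0 to 67.5 FPKM. Those of Sil1 were 0 to 116 and 0 to 52.2 FPKM. Where a median is listed at 0, here and in the lists below, the difference depends on the 1 FPKM set for it. The sizes for Sil1 and Sdf2l1 are thus not comparable with the 0.19 of BiP, which was above 0 in every cell.

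Of 18 other disulfide isomerases and ER oxidation genes, 4 were higher and 2 lower, with a median of 0. Gpx8, a peroxidase of the ER, was at 220 to 1102 FPKM (median 530) in mMSC and was above 0 in only 1 HL1cm (12.2 FPKM), and Txndc5, a disulfide isomerase, was at 37.5 and 1.62 FPKM (4.53). Gpx7, the relative of Gpx8, was lower in mMSC, at 16.6 and 50.8 FPKM (-1.61). Of 13 genes of the calnexin cycle and glycan trimming, which work beside Canx, Calr and Pdia3, 6 were higher and none was lower, with a median of 0.78. Mcfd2, a cargo receptor subunit, was at 59.1 and 13.96 FPKM (2.08), while Ganab, a subunit of glucosidase II, was at 13.1 and 18.2 FPKM (-0.47).

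Of 23 further genes of collagen modification and export, 9 were higher and 5 lower, with a median of 0.78. Plod3, a lysyl hydroxylase, was at 42.7 FPKM in the median mMSC and 0 in the median HL1cm (5.41), Fkbp7, a prolyl isomerase, at 191 and 6.67 FPKM (4.84), and Leprel4, a member of the leprecan family, at 24.1 FPKM and listed at 0 in all 5 HL1cm. In the other direction P4ha3, another alpha subunit of prolyl 4-hydroxylase, was at 0.587 and 18.7 FPKM (-4.11), and Plod2, another lysyl hydroxylase, at 4.25 and 14.1 FPKM (-1.75). Ppic, the relative of Ppib, was at 66.3 and 79.8 FPKM (-0.27), beside 1.84 for Ppib.

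Of 24 genes of ER entry and of the KDEL receptors, which return Hspa5, Hsp90b1, Calr and the isomerases to the ER, 4 were higher and 2 lower, with a median of 0.58. Kdelr3 was at 14.1 FPKM and 0 (3.81) and Ssr3, a translocon subunit, at 628 and 278 FPKM (1.18), while Rpn1, of the oligosaccharyltransferase, was at 14.1 and 44.8 FPKM (-1.68). Of 22 genes of the unfolded protein response, 3 were higher and 2 lower, with a median of 0. Those higher were Ddit3 (CHOP), a stress transcription factor, at 303 and 32.3 FPKM (3.23), Nupr1, a stress-induced nuclear protein, at 448 and 26.3 FPKM (4.09), and Creb3l1, a transcription factor of secretory cells, at 57.6 FPKM and 0 (5.85). Those lower were Derl3 (-5.40) and Atf6 (-1.71), while Xbp1 differed by 0.30. For comparison, 3 of 29 cytosolic and mitochondrial chaperones were higher and 5 lower, with a median of 0.10, and the lowest were the small heat shock proteins Hspb1 (0 and 106 FPKM) and Hspb8 (0 and 99.5 FPKM).

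The fibrillar collagen and lysyl oxidase genes listed differed far more than the 10 folding genes. Other clients of the 10 were not examined. All 8 fibrillar collagen and lysyl oxidase genes tested were higher in mMSC, with a median difference of 5.74 that depends on the 1 FPKM set for genes listed at 0, and for 5 of them every mMSC lay above every HL1cm. Col1a1 was at 30.8 to 385 FPKM (median 134) in mMSC and above 0 in 1 HL1cm (7.61 FPKM), and Col1a2 at 80.3 to 1194 FPKM (median 317) and listed at 0 in all 5 HL1cm. Serpinh1, which has collagen as its client, differed by 0.51 log2 units between the same cells. Of 12 genes of general use in cells, 5 were higher and none was lower, with a median of 0.62 (Gapdh -0.23). The median difference of 0.50 for the 10 genes lay below that value. With FPKM rescaled to 1 common sum, 25.4% of all tested genes were higher and 16.5% lower in mMSC, and the 8 of the 10 genes that were higher were all but Canx and Pdia6.

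**Figure D5:**
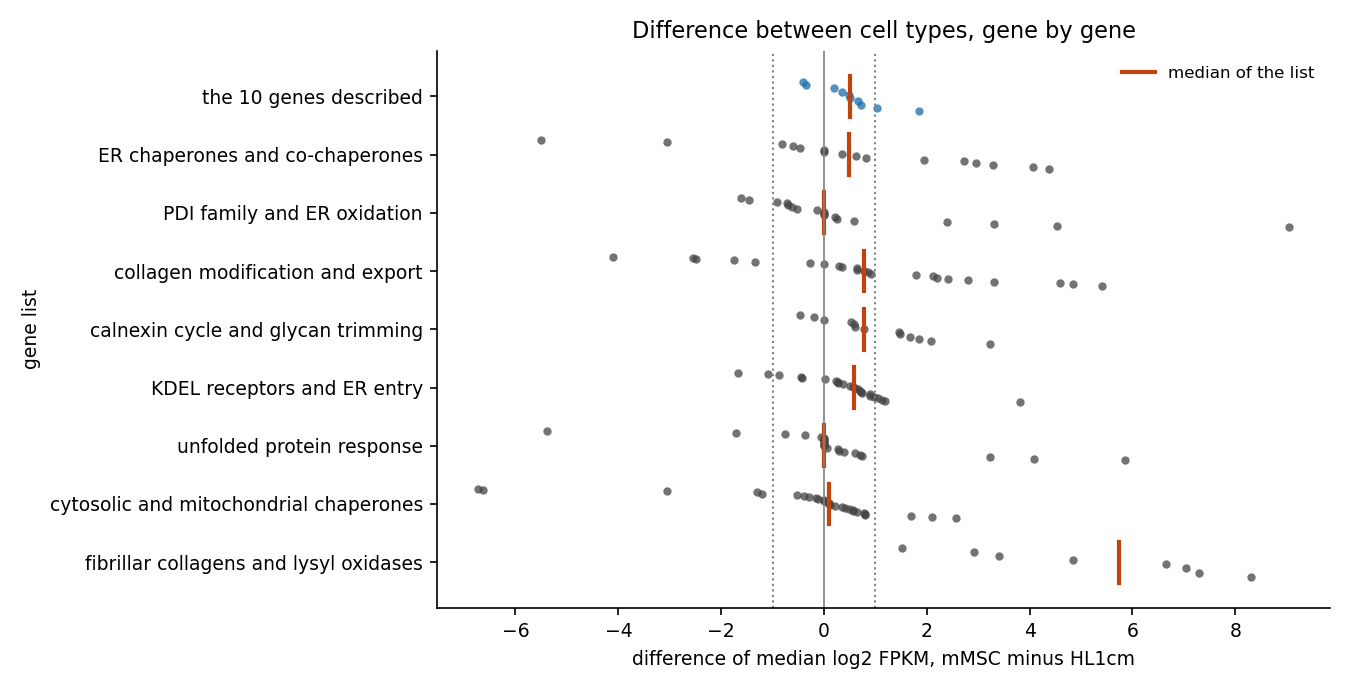
Difference of median log2 FPKM between mMSC and HL1cm for each tested gene of the lists, with a bar at the median of each list and dotted lines at 1 log2 unit. The 10 genes (blue) lie between -0.41 and 1.84, and the fibrillar collagens and lysyl oxidases between 1.52 and 8.31.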

How the data were processed

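RNA-seq libraries of 16 single mMSC, 5 single HL1cm and 2 population controls were used. Values are FPKM made and deposited by the authors, who aligned reads to mm10 with TopHat2 2.0.12 and estimated abundance with Cufflinks 2.2.1 (the submitters' processing notes). Counts were not used and no steps of whole reads were found in the low values, so depth and its intervals are not given. The limit of 1 FPKM follows the authors' methods.

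Differences of median log2 FPKM (mMSC minus HL1cm), SDs over cells, within-library ratios and Pearson's and Spearman's correlations were computed. Background shares cover the 11850 genes that reached 1 FPKM in 2 or more single cells. Repeats rescaled the values by their sum (TPM), by the sum of genes under 20000 FPKM (trimmed TPM, added after the data were seen), by the upper quartile or by Gapdh, changed the log scale, the mean or the listed zeros, or left out cells. The calls were tested on simulated data.

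The 10 genes and the lists were chosen with earlier results of these data known. Named list genes are among the 3 largest and 3 smallest differences of a list with 10 FPKM or more in the median of a cell type, with all collagens, Gapdh and 5 genes most like the 10. Creld2 and Syvn1 were named for their promoters, Snx22 as a neighbour and the markers at 0 for that value, after these were seen. Nppa and Myh7 were also named afterwards, as the remaining cardiomyocyte markers, and Atf6 and Xbp1 for their part in the unfolded protein response. Coordinates are from GENCODE M21 and promoters from RefSeq (GRCm38.p6). Of the list genes, Sep15 and Mzb1 were not matched. Protein sequences were not used here. The tools were Python (version 3.11.15), numpy (version 2.4.6), pandas (version 2.3.3), scipy (version 1.17.1) and matplotlib (version 3.10.9).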

Additional observations from a re-analysis of the deposited data

How the results depend on the processing

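With 5 HL1cm and read depth not used, differences under about the SD among cells could not be resolved. Over all alternatives that give one, no gene of the 10 was lower in mMSC by 1 log2 unit. With TPM the median difference of the 10 genes was 1.43, the count higher by 1 log2 unit was 8 (25.4% of all tested genes) and the median r was 0.50. The count higher was 4 after division by Gapdh (24.4% of all tested genes), and 1 with the upper quartile (21.4%), trimmed TPM (19.4%), the mean (21.4%), or without mMSC9 and mMSC15 (22.1%). Leaving out 1 HL1cm gave counts of 1 to 4 higher, where 20.6% to 22.1% of all tested genes were. The count was 4 without HL1cm2 or HL1cm4 (P4ha1 and Serpinh1 joined) and 1 without HL1cm3 or HL1cm5. The count without overlap was 1 (Ppib, mMSC above HL1cm) with the upper quartile and with Gapdh, and 0 to 1 with 1 HL1cm left out. Of all tested genes, 2.28% had every mMSC above and 2.08% every mMSC below with the upper quartile. These shares were 2.66% and 1.57% with Gapdh, and 2.72% and 2.28% without HL1cm2, where Ppib did not overlap. Genes above all cells in mMSC-PC numbered 0 with Gapdh and 3 with trimmed TPM (8.20% of all tested genes), and so did genes above all cells in both controls. The upper quartile gave 7 in mMSC-PC (15.9%) and 7 in both controls (9.16%). TPM gave 6 in mMSC-PC (13.9%) and 4 in both (8.77%). Without genes reaching 20000 FPKM, the difference in share of the sum was 0.00493 percentage points against 0.291 with them. Canx was higher in mMSC with TPM (0.13) and with Gapdh (0.19) and Pdia6 with TPM (0.26), and the other 8 genes kept their direction in 14 of 14 alternatives. The cause of these changes was not tested. No paired analysis was possible because the shared numbers of mMSC and HL1cm only name cells and no test was made.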
